A study of Mus musculus with 6 samples.

Results

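The genes described here encode the machinery of the triad, the junction at which a muscle fibre turns an electrical signal into calcium release. There are 10 of them among the 22036 genes of the deposited table, chosen by symbol as the ryanodine receptor, the dihydropyridine receptor subunits and the triad scaffold proteins: Ryr1, Cacna1s, Cacnb1, Cacng1, Cacna2d1, Jph1, Jph2, Stac3, Trdn and Jsrp1. All 10 were listed, and all 10 passed the filter on low counts. The rule uses no measured value, but the set was proposed with earlier results of these data known.

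Both groups were skeletal muscle of mice knocked out (KO) for PRR14, a protein of the nucleus, and collected 1 month after a viral injection. The vector was AAV, an adeno-associated virus that brings a gene into cells. In one group, called MEF2C here, it brought MEF2C-GFP, where MEF2C is a transcription factor of muscle and GFP is green fluorescent protein. In the other, called GFP here, it brought GFP. Each group had 3 libraries. The knockout is shared by both groups, and no wild-type or uninjected muscle was analysed here. The labels give no muscle, strain, age or sex, and name neither the knockout allele nor the promoter that drives the virus. They do not say that the 3 libraries of a group came from separate animals, so the p-values measure the spread between these libraries, which may be technical. Libraries were made from full-length cDNA amplified by PCR and read on Oxford Nanopore instruments, so that one read can span a whole transcript. The table held 3370833 to 3900617 counts per library.

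In a resting fibre the surface membrane folds inward as transverse tubules, and each tubule is flanked by terminal cisternae of the sarcoplasmic reticulum, the calcium store. The dihydropyridine receptor in the tubule senses voltage, and in skeletal muscle it opens the ryanodine receptor in the facing store membrane by mechanical coupling rather than by calcium entry. Junctophilins hold the membranes together, and triadin and related proteins tie the release channel to the calcium buffer inside the store.

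None of the 10 genes differed between the virus groups at an adjusted p under 0.05 in edgeR's quasi-likelihood test with Benjamini-Hochberg adjustment over 9229 genes, where 7 genes, or 0.0758% of those tested, were called, and 0.0433% were called lower. DESeq2's Wald test also called none of the 10, beside 0.463% of the 4752 genes to which it gave an adjusted p. All 10 fitted log2 fold changes lay below 0, from -0.59 for Cacnb1 to -0.10 for Jph2, with TMM scaling (a factor per library estimated from most genes), and 8 of 10 did so when counts were scaled to library totals alone, where Jph1 stood at 0.0031 and Jph2 at 0.033. Over all genes tested, 47.8% of fold changes lay below 0 with TMM and 27.4% with library totals. The median of the 10 was -0.26 beside 0.01 for all genes with TMM, and -0.12 beside 0.14 with library totals. Cacnb1, Jsrp1 and Cacng1 had an unadjusted p under 0.05 in the lower direction, 3 of 10 where 2.35% of all genes did (5.71% in either direction). None of the 10 did so in the higher direction, where 3.36% of all genes did.

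A pair of genes bears on the labels. Values are given throughout in the order of replicates 1, 2 and 3. Prr14, knocked out in every library, had counts of 30, 23 and 20 in the MEF2C libraries and of 11, 12 and 15 in the GFP libraries (log2 fold change 0.72 ± 0.32 SE, adjusted p = 0.856 in edgeR). Without wild-type muscle to compare, these counts do not show whether the knockout removed its transcript. Normalised CPM (counts per 1000000 of the TMM-scaled library) of Mef2c, whose protein the virus encodes, were 234, 196 and 371 in the MEF2C libraries and 223, 261 and 236 in the GFP libraries (log2 fold change 0.15 ± 0.22, adjusted p = 0.993 in edgeR). MEF2C replicate 3 was the one library above all 3 GFP libraries, and MEF2C replicate 2 was below all of them. Whether reads from the virus are counted under this gene is not given in the sources used here, and every direction below is that of the libraries labelled MEF2C against those labelled GFP.

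MEF2C binds DNA, so the sequence before the start sites is shown first for the genes on which the results turn. RefSeq (build GRCm38.p6) gave 300-base start-site windows for 5 of the 10 genes, in 7 windows: Ryr1, Cacna1s, Cacnb1, Cacna2d1 and Jph2. Those of Cacng1, Jph1, Stac3, Trdn and Jsrp1 were not matched. Stretches of 4 genes that hold no annotated exon are printed here. That of Cacnb1 lies before its protein-coding transcripts but within an intron of a non-coding transcript of the gene that starts further upstream. Cacnb1 is shown because its groups did not overlap, Ryr1 and Cacna1s because they are the release channel and its voltage sensor, and Jph2 because it shares a motif with Cacna1s. Capitals mark the GC box GGGCGG and the E-box CAGCTG on either strand, so that CCGCCC is the GC box of the opposite strand and CAGCTG reads alike on both.
Cacnb1, chr11:98022635-98022877, minus strand: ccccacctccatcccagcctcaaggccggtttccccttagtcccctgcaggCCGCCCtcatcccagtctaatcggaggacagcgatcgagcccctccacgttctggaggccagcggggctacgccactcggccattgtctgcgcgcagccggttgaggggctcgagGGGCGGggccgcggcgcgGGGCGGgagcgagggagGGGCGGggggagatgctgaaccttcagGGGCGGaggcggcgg
Ryr1, chr7:29125180-29125401, minus strand: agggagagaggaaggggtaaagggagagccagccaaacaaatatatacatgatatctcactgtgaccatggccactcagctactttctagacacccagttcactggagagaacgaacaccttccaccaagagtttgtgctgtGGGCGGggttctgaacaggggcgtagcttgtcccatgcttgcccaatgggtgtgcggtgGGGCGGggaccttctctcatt
Cacna1s, chr1:136052561-136052749, plus strand: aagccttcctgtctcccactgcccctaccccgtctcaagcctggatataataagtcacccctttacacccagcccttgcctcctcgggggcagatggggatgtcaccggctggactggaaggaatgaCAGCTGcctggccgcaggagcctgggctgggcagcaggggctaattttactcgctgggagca
Jph2, chr2:163397994-163398223, minus strand: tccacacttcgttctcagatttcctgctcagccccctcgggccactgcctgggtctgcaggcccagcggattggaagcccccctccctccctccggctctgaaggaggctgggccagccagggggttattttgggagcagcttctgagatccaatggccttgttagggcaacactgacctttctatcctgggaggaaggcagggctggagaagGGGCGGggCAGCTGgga

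No window of these 5 genes held an exact match to the MEF2 motif YTAWWWWTAR or to the CArG box CCWWWWWWGG. Here Y is C or T, W is A or T and R is A or G. Of 32851 mouse promoter windows of the same length, 3.19% held the MEF2 motif and 1.63% the CArG box. Near matches were not counted. The printed Cacna1s stretch holds ctaattttac, which departs from the MEF2 motif in its last letter alone. A second Cacnb1 window, chr11:98018323-98018622 and not printed, holds ctaaatatac, which departs from it in the same way. The TATA letters TATAAA, held by 13.6%, and the E-box CACCTG, held by 20.2%, were also not found in any of the 7. The E-box CAGCTG, a form that muscle regulatory factors can bind, was found in Cacna1s and in both overlapping windows of Jph2, beside 16.3% of all windows. The GC box was in 6 of 7 windows, both overlapping windows of Jph2 among them, beside 35.7% of all. The 7 windows were 56.7% to 80.0% GC, beside a median of 52.7% over all promoter windows, and GC content was not matched. In Cacna1s the GC box lay within the annotated exon and is not printed. These are matches of letters in short windows, and they say nothing of binding here or further away.

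**Figure D1:**
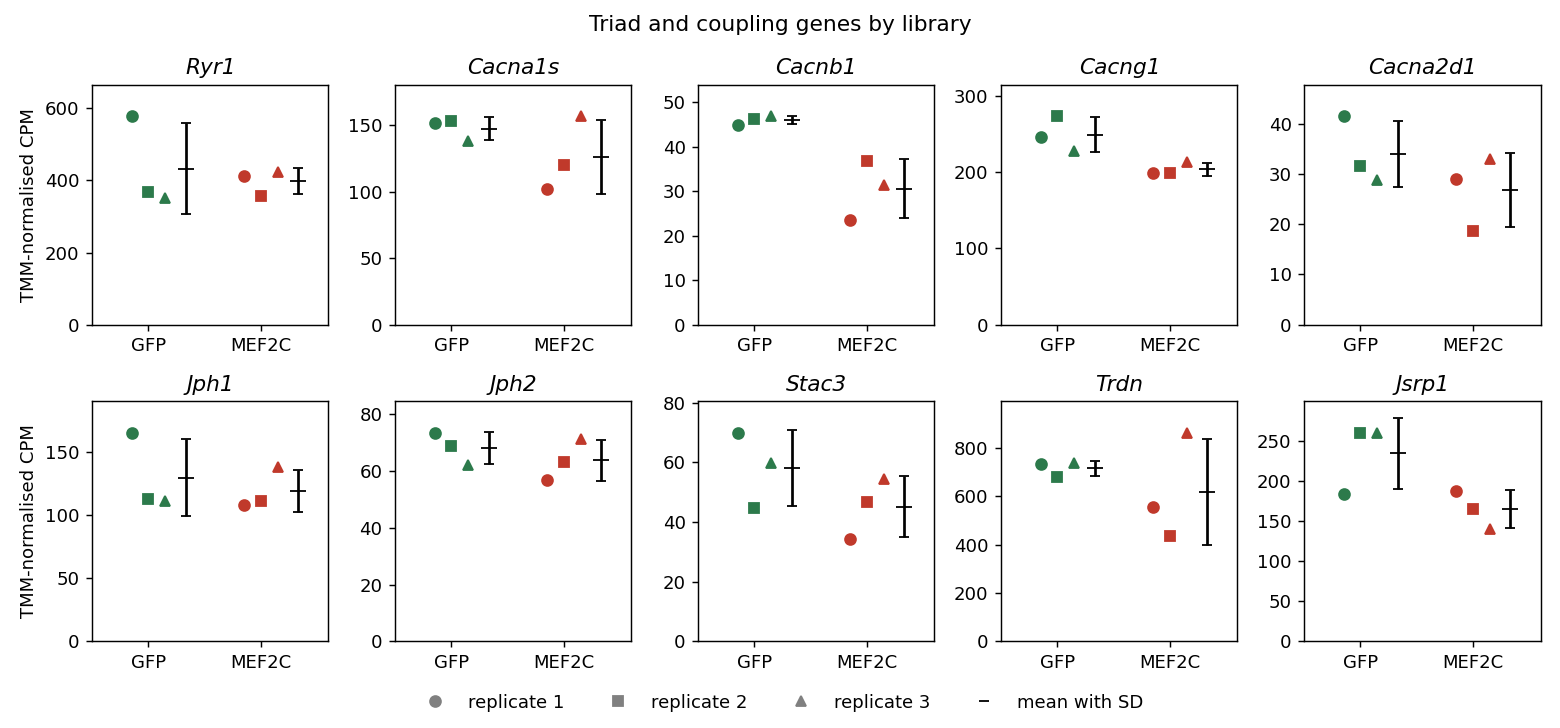
TMM-normalised CPM (vertical axes, from 0) of the 10 triad and coupling genes in the 3 GFP libraries (green) and the 3 MEF2C libraries (red), with the group mean and SD in black. The groups are apart for Cacnb1 and Cacng1, and GFP replicate 1 is the highest library for Ryr1, Cacna2d1, Jph1, Jph2 and Stac3.

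The voltage sensor was read first through its pore. Cacna1s (ENSMUSG00000026407, GRCm38 chromosome 1, 136052750 to 136119822, plus strand, 44 exons in its longest transcript) encodes the alpha-1S subunit, which forms the channel and holds its voltage-sensing segments. Its normalised CPM were 102, 120 and 157 in the MEF2C libraries and 151, 153 and 138 in the GFP libraries. MEF2C replicates 1 and 2 were below all GFP libraries and MEF2C replicate 3 was above all of them, so the groups overlapped. The log2 fold change was -0.22 ± 0.16 SE, with a 95% interval of -0.56 to 0.11 (edgeR adjusted p = 0.956).

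Cacnb1 (ENSMUSG00000020882, chromosome 11, 98001508 to 98023034, minus strand) encodes the beta-1 subunit, which sits on the inner side of the pore and carries it to the membrane. Its values were 23.6, 36.9 and 31.5 normalised CPM in the MEF2C libraries and 45.0, 46.3 and 46.9 in the GFP libraries. All 3 MEF2C libraries were below all 3 GFP libraries, with TMM and on library totals alike, and the GFP libraries were close to each other (46.1 ± 0.950 SD, n = 3, against 30.6 ± 6.68). The log2 fold change of -0.59 ± 0.17 (95% interval -0.96 to -0.22) is a ratio of 0.666, but it did not pass the adjustment over all genes (edgeR adjusted p = 0.617). Groups of this kind, with MEF2C lower and no overlap, were seen for 2 of the 10 genes and for 5.33% of all genes with TMM (none of the 10 and 5.75% with MEF2C higher), and for 1 of the 10 and 1.81% of all on library totals. The counts behind these values were 91 to 148 in the MEF2C libraries and 145 to 177 in the GFP libraries, the fewest of the set after Cacna2d1.

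Cacng1 (ENSMUSG00000020722, chromosome 11, 107703218 to 107716522, minus strand) encodes the gamma-1 subunit, a membrane protein of the skeletal channel that dampens its calcium current. It was the second gene whose groups did not overlap with TMM, at 198, 199 and 213 normalised CPM against 245, 273 and 228. On library totals the MEF2C libraries reached 231 and the lowest GFP library was 220, so the groups overlapped. Its log2 fold change was -0.29 ± 0.12 (95% interval -0.56 to -0.02, edgeR adjusted p = 0.856).

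Cacna2d1 (ENSMUSG00000040118, chromosome 5, 15934691 to 16374511, plus strand) encodes the alpha-2-delta-1 subunit, an extracellular partner of the pore. It had the fewest counts of the 10, 75 to 140 per library. Its normalised CPM were 29.0, 18.7 and 32.9 in the MEF2C libraries and 41.5, 31.6 and 28.9 in the GFP libraries, which overlap, and MEF2C replicate 2 was the lowest. Its fitted log2 fold change was -0.34 ± 0.22 (edgeR adjusted p = 0.938).

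Stac3 (ENSMUSG00000040287, chromosome 10, 127501686 to 127508823, plus strand) encodes an adaptor that binds the alpha-1S subunit and is needed for coupling to the release channel. Its values were 34.2, 46.6 and 54.4 normalised CPM in the MEF2C libraries and 69.9, 44.7 and 59.9 in the GFP libraries. MEF2C replicate 1 was the lowest and GFP replicate 1 the highest, and the other libraries were interleaved. This gave a log2 fold change of -0.37 ± 0.20 with a 95% interval of -0.80 to 0.06 (edgeR adjusted p = 0.928).

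For the members on the release side of the junction, Ryr1, Trdn and Jsrp1, the groups overlapped in each case. Ryr1 (ENSMUSG00000030592, chromosome 7, 29003344 to 29125179, minus strand, 106 exons, longest transcript 15358 bases) encodes the calcium release channel of skeletal muscle. It stood at 412, 356 and 423 normalised CPM in the MEF2C libraries and at 578, 368 and 352 in the GFP libraries. GFP replicate 1 was the highest and the other 5 libraries lay between 352 and 423. The log2 fold change was -0.12 ± 0.18 (95% interval -0.52 to 0.27, edgeR adjusted p = 0.993), and without GFP replicate 1 it turned to 0.13.

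Trdn (ENSMUSG00000019787, chromosome 10, 33080554 to 33476709, plus strand) encodes triadin, which links the release channel to calsequestrin in the store. Its 3 MEF2C libraries were the most spread values of the set, at 556, 434 and 863 normalised CPM, beside 732, 681 and 737 in the GFP libraries. MEF2C replicates 1 and 2 were below all GFP libraries and MEF2C replicate 3 was above them. In the fit the log2 fold change was -0.21 ± 0.23 (edgeR adjusted p = 0.993). Leaving out MEF2C replicate 3 moved it to -0.53 (edgeR adjusted p = 0.173), and leaving out MEF2C replicate 2 moved it to -0.018.

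Jsrp1 (ENSMUSG00000020216, chromosome 10, 80808496 to 80813498, minus strand) encodes JP-45, a protein of the junctional store membrane that interacts with the alpha-1S subunit and with calsequestrin. It stood at 188, 166 and 141 normalised CPM in the MEF2C libraries and at 183, 260 and 260 in the GFP libraries. GFP replicates 2 and 3 were above every MEF2C library, and GFP replicate 1 was below MEF2C replicate 1. The log2 fold change was -0.51 ± 0.16 (95% interval -0.85 to -0.17), a ratio of 0.703, and it did not pass the adjustment (edgeR adjusted p = 0.677).

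The junctophilins, which bridge the tubule and store membranes, were the members with fold changes nearest 0, with Ryr1 beside them. Jph1 (ENSMUSG00000042686, chromosome 1, 16964560 to 17097889, minus strand) stood at 108, 111 and 138 normalised CPM in the MEF2C libraries and at 165, 113 and 111 in the GFP libraries, which overlap. Jph2 (ENSMUSG00000017817, chromosome 2, 163336242 to 163397993, minus strand) stood at 56.7, 63.3 and 71.1 and at 73.5, 68.9 and 62.3. Their log2 fold changes were -0.12 ± 0.17 (95% interval -0.49 to 0.24) and -0.10 ± 0.14 (-0.40 to 0.21) with TMM, and both lost that sign on library totals.

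**Figure D2:**
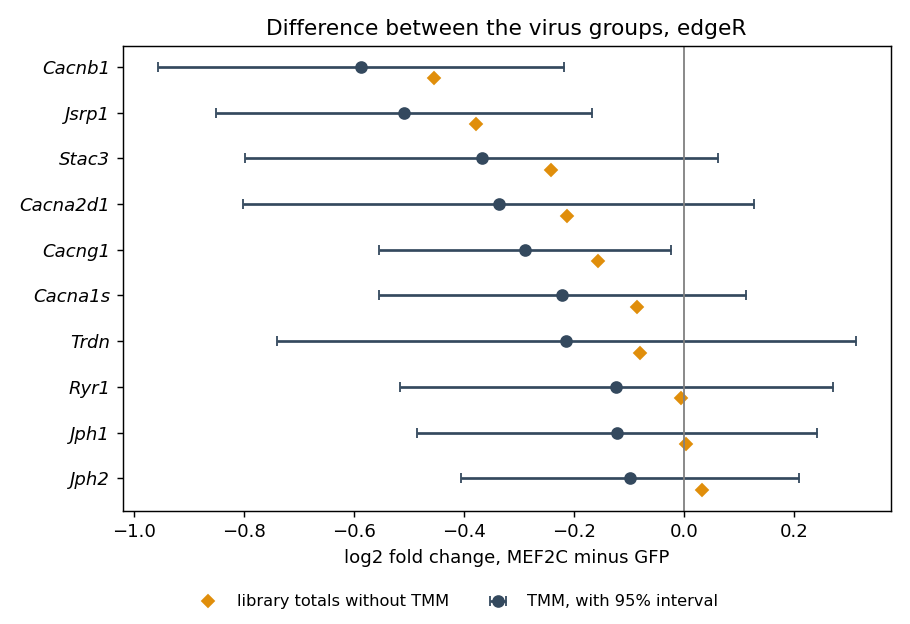
Fitted log2 fold change, MEF2C minus GFP (horizontal axis), of each of the 10 genes from edgeR, as dark points with 95% intervals for TMM scaling and orange diamonds for library totals without TMM. The intervals of Cacnb1, Jsrp1 and Cacng1 lie below 0 before adjustment over all genes, and on library totals Jph1 and Jph2 lie at or just above 0.

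Levels of different genes are given per length of transcript, although a read that spans a whole transcript counts once whatever its length, and division by length then favours short transcripts. As CPM per kilobase of the longest annotated transcript over the 6 libraries, Cacng1 (181 ± 23.4 SD), Jsrp1 (151 ± 37.5) and Trdn (148 ± 33.5) were highest and overlapped within 1 SD. Stac3 (28.8 ± 7.02), Ryr1 (27.0 ± 5.54), Jph1 (25.9 ± 4.74) and Cacna1s (21.9 ± 3.47) followed, and neighbours in that run also overlapped within 1 SD. Jph2 (15.7 ± 1.49), Cacnb1 (11.3 ± 2.79) and Cacna2d1 (4.09 ± 0.992) came last, each apart from its neighbour by more than their SDs. The order depended on this division: in CPM not divided by length Trdn (667) and Ryr1 (415) came first, ahead of Cacng1 (226). Within the channel complex Cacng1 was highest and Cacna2d1 lowest in both.

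In each family with listed paralogues, most counts were those of the members. Of 22 paralogues of the 10 genes, only Cacng6, the skeletal gamma-6 subunit, passed the filter, with 142 to 192 counts per library and 22.8 ± 2.07 CPM per kilobase. The cardiac release channel Ryr2 had 1 count in all 6 libraries, and Ryr3, a further release channel of the family, had 2. The cardiac pore Cacna1c had 9 counts in all and at most 4 in a library. The paralogues with most counts in the other families were Cacnb4 (23 counts in all), Cacna2d4 (21), Jph4 (4), and Stac and Stac2 with 2 each.

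Ratios of counts within a library do not depend on its scaling. Over 9 pairs of genes, the groups overlapped in each. Cacnb1 per Cacna1s was 0.230, 0.307 and 0.201 in the MEF2C libraries and 0.297, 0.302 and 0.340 in the GFP libraries, so MEF2C replicate 2 lay among the GFP values. Ryr1 per Cacna1s was 3.23 ± 0.703 (SD, n = 3) against 2.92 ± 0.776, and Cacng1 per Cacna1s was 1.65 ± 0.288 against 1.69 ± 0.0864. Jsrp1 per Ryr1 was 0.456, 0.465 and 0.332 against 0.317, 0.706 and 0.739, where GFP replicate 1 was the lowest of all 6. The ratio of Jph1 to Jph2 differed least between libraries, by 1.37 times from lowest to highest.

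**Figure D3:**
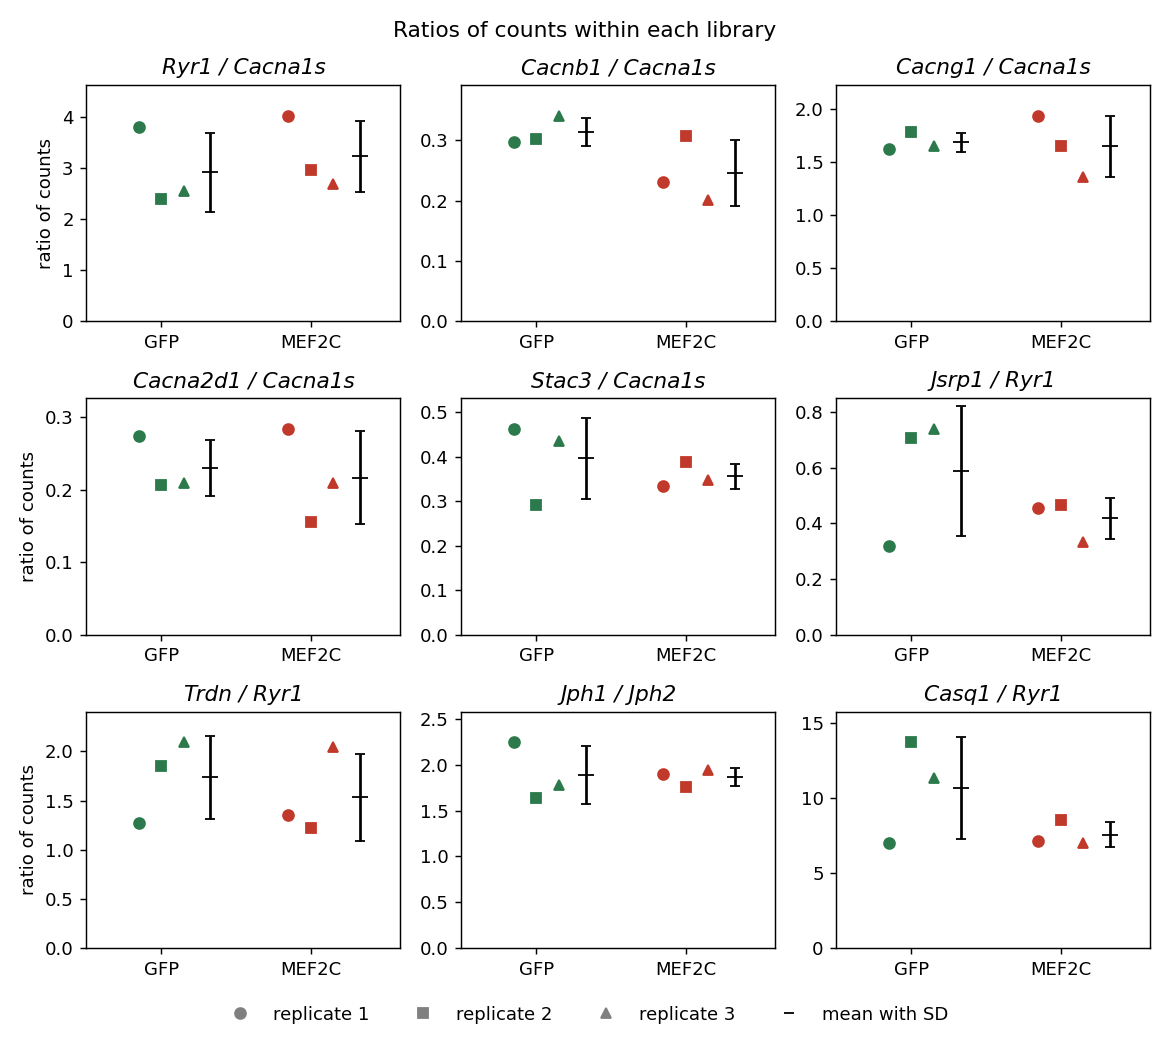
Ratio of the counts of 2 genes within each library (vertical axes, from 0) for 9 pairs, with GFP libraries in green, MEF2C libraries in red and the group mean and SD in black. The groups overlap in each pair, and GFP replicate 1 stands apart from the other GFP libraries for Ryr1 per Cacna1s, Jsrp1 per Ryr1 and Casq1 per Ryr1.

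Libraries of a group differed in how many of the genes stood high. GFP replicate 1 held 9 of the 10 genes above their mean over the 6 libraries. MEF2C replicate 3 and GFP replicate 2 held 7 each and GFP replicate 3 held 6, whereas MEF2C replicates 1 and 2 held 1 and 0. These means hold both groups, and whether the genes vary together within a group was not tested. The lowest library was MEF2C replicate 1 for 6 genes. The median deviation of the set on the log2 scale was 0.22, 0.08 and 0.02 in GFP replicates 1, 2 and 3. It was -0.20, -0.17 and 0.11 in MEF2C replicates 1, 2 and 3. GFP replicate 1 and MEF2C replicate 3 were also the libraries in which long transcripts as a class stood higher. The 2046 genes with transcripts over 5000 bases had median deviations of 0.12 and 0.17 there, and of -0.08 to -0.01 in the other 4 libraries. Cacnb1, Cacng1 and Jsrp1 were below their mean in MEF2C replicate 3, where Jsrp1 had its lowest value, and Jsrp1 was also below its mean in GFP replicate 1. Cacng1 and Jsrp1 have the shortest transcripts of the 10, at 1249 and 1325 bases, and that of Cacnb1 has 3396. Stac3, at 1790 bases, was above its mean in MEF2C replicate 3 (0.11) and in GFP replicate 1 (0.47). Whether transcript length has a part in the deviations of these genes was not tested.

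The count of the 10 genes lower at an unadjusted p under 0.05 depended most on MEF2C replicate 3. It was 3 of 10 with all libraries and 7 of 10 without MEF2C replicate 3 (median log2 fold change -0.41), where 3% of all genes were lower by the same rule. It stayed at 3 of 10 without GFP replicate 1 (median -0.21, 2.91% of all genes). Without both of these libraries, a setting chosen after seeing the data, it was 5 of 10 (median -0.37, 3.96% of all genes) and the log2 fold change of Ryr1 was 0.08. It was 2 of 10 without MEF2C replicate 1 (median -0.18, 2.20% of all genes) and without MEF2C replicate 2 (median -0.16, 2.33%). Without GFP replicate 2 or GFP replicate 3 it was 3 of 10, beside 1.62% and 1.69% of all genes. With fold changes corrected for transcript length it was 4 of 10, with a median of -0.30, beside 3.33% of all genes. No member was called at an adjusted p under 0.05 in any of the 17 alternatives to the fit described, 16 of them planned. With the fit described these made 18 fits, apart from an earlier fit with other library sizes that the processing section names.

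**Figure D4:**
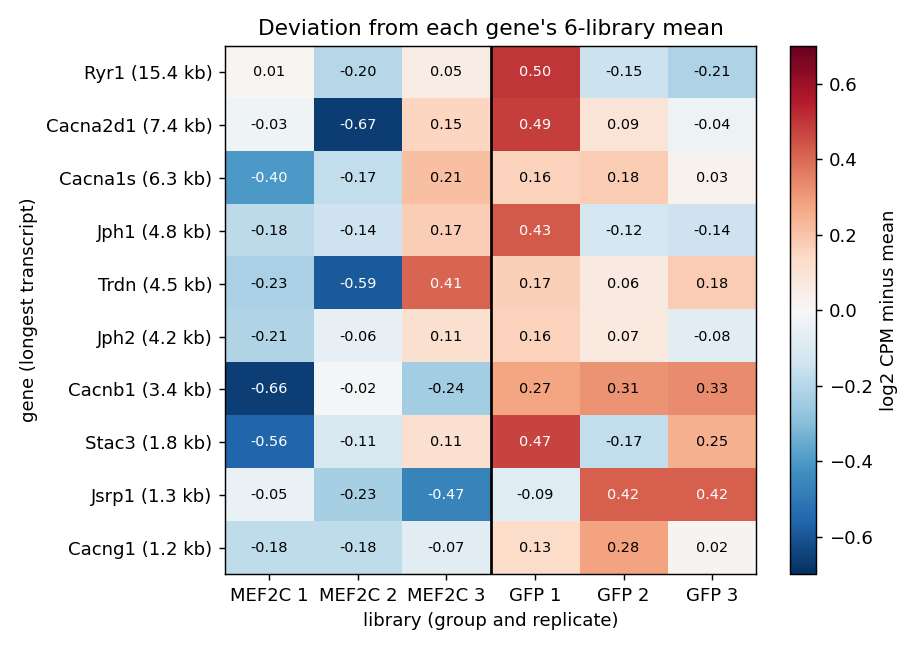
Deviation of log2 normalised CPM from the mean of the 6 libraries (colour and printed value) for each gene, ordered from the longest transcript at the top to the shortest, with the MEF2C libraries left of the black line and the GFP libraries right of it. GFP replicate 1 is above the mean for 9 of 10 genes and MEF2C replicate 2 for none.

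A further 3 lists cover the wider machinery: partners of the release channel, proteins that build tubules and triads, and calcium uptake and entry. Of the release partners, 15 of 18 were tested, none was called, 8 had fold changes below 0 and 7 above, and the median was -0.15. Casq1, the calcium buffer of fast fibres, had the smallest p of the list, at 2951, 3049 and 2954 normalised CPM in the MEF2C libraries against 4042, 5042 and 3995 in the GFP libraries. Its groups did not overlap (log2 fold change -0.55 ± 0.12), but its edgeR adjusted p was 0.211. Homer2, a scaffold of calcium signalling, was at 8.81, 10.2 and 10.6 against 5.63, 7.34 and 3.71 (0.84 ± 0.29, edgeR adjusted p = 0.749).

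Of the 16 tubule and triad builders all were tested and none was called or had an unadjusted p under 0.05, with 10 fold changes below 0, 6 above and a median of -0.093 that became 0.037 on library totals. Cav3, the muscle caveolin, and Tcap, a Z-disc cap protein, had the smallest p of that list, at -0.29 ± 0.15 and -0.20 ± 0.12 on the log2 scale (adjusted p = 0.928 for both in edgeR). Of the calcium uptake and entry genes, 10 of 12 were tested, 7 lay below 0 and 3 above, the median was -0.13 and 1 was called. Pvalb, the soluble calcium buffer parvalbumin of fast fibres, fell from 13673, 16585 and 13806 normalised CPM in the GFP libraries to 8413, 7255 and 8346 in the MEF2C libraries (log2 fold change -0.88 ± 0.12, edgeR adjusted p = 0.0162). Its call held in 11 of 17 alternatives and was lost without MEF2C replicate 2 (adjusted p = 0.169 in edgeR), GFP replicate 2 (0.129) or GFP replicate 3 (0.140), with the direction kept. Atp2a2, the slow-fibre calcium pump, stood at 32.4, 27.6 and 19.4 against 13.6, 9.89 and 10.6 and did not overlap (1.21 ± 0.23, edgeR adjusted p = 0.120). The far more abundant fast-fibre pump Atp2a1, named after its values were seen, went the other way. It stood at 19591 to 21355 in the MEF2C libraries and 22321 to 28634 in the GFP libraries, without overlap (-0.36 ± 0.12, edgeR adjusted p = 0.749). The plot of these lists also labels Sln (2.25 ± 0.77), Mcu (-0.80 ± 0.35) and Casq2 (0.60 ± 0.30), picked by size after their values were seen, and none of them was called.

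**Figure D5:**
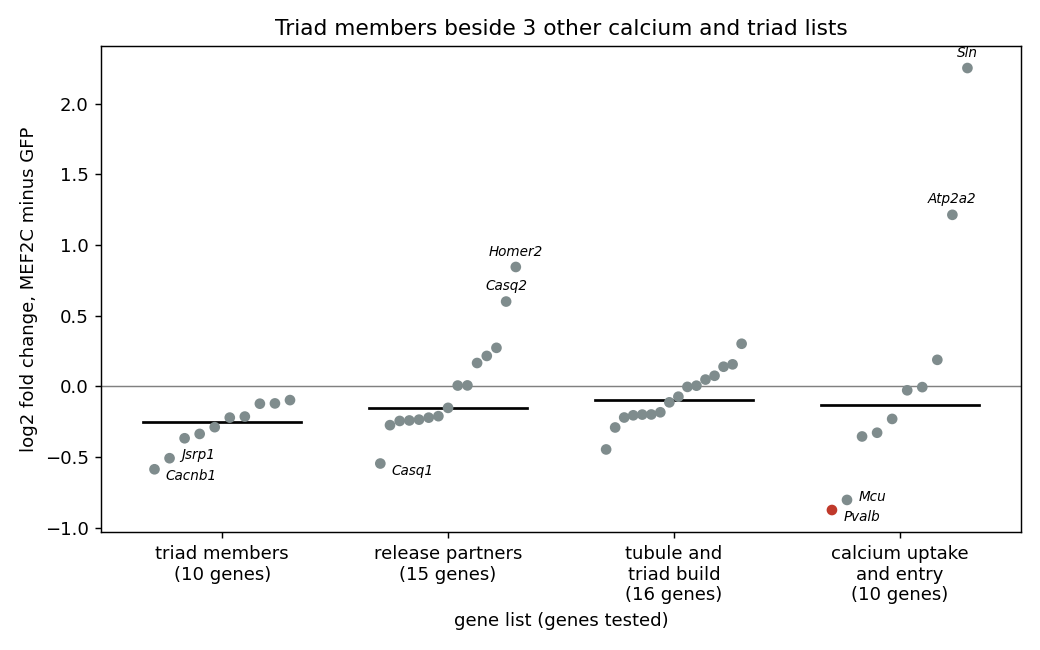
Fitted log2 fold change, MEF2C minus GFP (vertical axis), of the genes tested in the triad set and in 3 further lists, with the list median as a black bar and the gene at an adjusted p under 0.05 in red. The medians lie between -0.26 and -0.093 with TMM scaling, where library totals give -0.12 for the triad set, -0.025 for the release partners, 0.037 for the tubule and triad builders and 0.0039 for uptake and entry.

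Some markers of fibre type and of other cells differed between the groups, and others did not. The 20 pan-fibre genes, taken as common to muscle fibres, summed to 13526 to 15299 normalised CPM in the MEF2C libraries. Their sums in the GFP libraries were 13357 to 15612, which overlap. Of their fold changes 6 lay below 0 and 14 above, with a median of 0.097. Summed markers of endothelial, fibro-adipogenic, fat and Schwann cells also overlapped between the groups. The summed level of 12 fast-fibre genes, which include Pvalb and Casq1, was 141116 to 148055 normalised CPM in the MEF2C libraries and 187648 to 215666 in the GFP libraries. That of 10 slow-fibre genes, which include Atp2a2, was 1694, 1665 and 422 against 199 to 265. Granulocyte markers summed to 1264 in MEF2C replicate 1, to 79.5 in GFP replicate 3 and to at most 7.72 elsewhere. Blood-cell markers, mostly globins, summed to 8631, 4393 and 4854 in the MEF2C libraries and to 3080 to 4166 in the GFP libraries, without overlap. Smooth-muscle markers did not overlap either, at 524 to 643 in the MEF2C libraries and 404 to 512 in the GFP libraries. Neuronal markers, which matter because nerve also uses calcium channel subunits, summed to 0.889 to 2.74, with Rbfox3, Nefl and Snap25 at 0. Cardiac markers summed to 1.21 to 5.04, with Mybpc3 and Nppa at 0. The part of these differences in the values of the triad genes was not tested, and in bulk tissue fewer fibres of a type cannot be told apart from less RNA per fibre.

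Likeness was taken over 3452 other genes with a mean of at least 20 CPM, with predicted-gene and clone names left out. The log2 CPM of 5 genes followed the mean of the 10 most closely over the 6 libraries. They were Vcp, an ATPase that extracts proteins for degradation (Pearson's r = 0.979), C1galt1c1, a chaperone of a glycosylation enzyme (0.975), and Ky, a muscle protein of the Z-disc (0.966). Trim54, a muscle ubiquitin ligase (0.961), and Agpat5, an acyltransferase (0.961), completed the 5. These are descriptions over 6 libraries that share their depth and transcript-length pattern, picked as the highest of many. Within the annotation, 6 of the 10 genes overlap a gene on the opposite strand, and none of the 19 overlapping genes was in the table. Whether counting used strand is not given in the sources used here, so reads of those genes cannot be told apart from those of the members.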

How the data were processed

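The deposited gene table holds whole-number read counts per gene and the authors' CPM of the same libraries, per the file headers. The submitters' processing notes name minimap2, GRCm38 and DESeq2 1.6.3, without roles; the sources used here give no counter, strand use or annotation. PCR reads without molecular identifiers are not independent molecules, so a floor of 3 counts covers counting error only. Intervals of fold changes come from the spread between libraries. The deposited counts went into edgeR 4.0.16 (R 4.3.3): filterByExpr by group, TMM on listed totals, robust quasi-likelihood test, Benjamini-Hochberg adjustment over 9229 genes. SE is the absolute log2 fold change over the square root of F. Normalised CPM here is the count divided by the TMM-scaled listed total, times 1000000. The deposited CPM served to recover library totals, of which the listed genes took 95.6% to 96.4%. In addition, 30 rows that name no gene held 0 counts.

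Positions, exons and lengths are from GENCODE vM21 (GRCm38), and promoter sequences from RefSeq. Alternatives used DESeq2 1.42.0, limma 3.58.1, other scalings, filters, a transcript length correction (loess span 0.3) and left-out libraries. The genes named outside the set were, per list, called genes and the 2 with the smallest p; the highest paralogue per family; Mef2c; and the 5 most like the set. Prr14 was added as the check on the knockout, and Atp2a1, Sln, Mcu and Casq2 were added after their values were seen. The members and lists were chosen with earlier results of these data known. Keeping the listed totals as library sizes was settled after both ways had been fitted; it called 7 genes either way.

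The test was tried on simulated counts at these depths, with 200 genes changed before the filter on low counts, which left 8971 to 9037 genes. The first simulation, with gene-wise dispersions, gave 17 false calls among 108, and others were then added, to 6 with each kind of dispersion. With trended dispersions 3.29% of calls were false, and 6.08%, 51.9% and 98.4% of genes changed by 0.5, 1 and 2 on the log2 scale were called. With gene-wise dispersions 11.4% of calls were false, above the nominal 5%, and 5.00%, 44.3% and 92.0% were called. Differences of the size fitted for the members were thus mostly not detectable with 3 libraries a group. Calls in these data, Pvalb among them, may likewise include more false ones than the nominal 5%. The simulated shares are over all calls with 200 genes changed, and are not the error rate of any single call.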

Additional observations from a re-analysis of the deposited data

How the results depend on the processing

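Of 170 refitted fold changes of the 10 genes, 165 kept direction and stayed uncalled, and 5 reversed: Jph1 (0.0031) and Jph2 (0.033) on library totals, Ryr1 (0.13) and Jph1 (0.077) without GFP replicate 1, and Ryr1 (0.08) without MEF2C replicate 3 and GFP replicate 1. With 1 library left out, Jph1 ranged from -0.24 to 0.077, Ryr1 from -0.25 to 0.13, Trdn from -0.53 to -0.018, Cacna1s from -0.41 to -0.096, Cacna2d1 from -0.51 to -0.14, Stac3 from -0.53 to -0.21, Jph2 from -0.19 to -0.026, Cacnb1 from -0.74 to -0.44, Jsrp1 from -0.67 to -0.41 and Cacng1 from -0.35 to -0.22. No setting called a member. Pvalb was also not called with scaling to pan-fibre genes (adjusted p = 0.058 in edgeR), non-robust dispersion (0.078) or the replicate number as a block (0.095). The count of all genes called, 7, became 1 with scaling to pan-fibre genes, 35 without the low-count filter, 3 with a stricter filter, 0 with non-robust dispersion (557 at an unadjusted p under 0.05), 22 with DESeq2's Wald test, 3 with limma-voom, 27 without MEF2C replicate 3 and GFP replicate 1, and 0 to 22 when 1 library was left out. Both settings with 0 genes called are edgeR fits, the second being without GFP replicate 3 (386 at an unadjusted p under 0.05). With the replicate number as a block, 2 genes were called and the median of the 10 was -0.28. Same-numbered libraries correlated at -0.23, 0.05 and -0.25 in their deviations, which gave no sign of pairing by number. With deviations taken within groups of 3 libraries this cannot exclude pairing. The block changed no call of a member. The median of the 10 ranged from -0.41 (without MEF2C replicate 3) to -0.16 (without MEF2C replicate 2) when 1 library was left out. A total of 3 counts is worth 0.769 to 0.890 CPM, below the level of every member in every library.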
